A study of Mus musculus with 8 samples.

Results

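Ctcf and the genes of the cohesin complex were followed in hippocampus from mice that carried a conditional deletion of Ctcf. The 10 genes were Ctcf, its paralogue Ctcfl, the cohesin ring subunits Rad21, Smc1a and Smc3, the ring-bound subunits Stag1 and Stag2, the loading factor Nipbl, and the ring regulators Pds5a and Pds5b. Every non-control probe whose gene name in the scanner files was one of these was taken, which gave 13 probes of the 39429 on the array. Of the 13, 11 probes of 9 genes were bright enough to be tested, and the probe of Ctcfl and 1 of the 3 probes of Pds5b were not.

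CTCF binds insulator and loop-anchor sites on DNA through its zinc fingers. Cohesin is a ring that encircles DNA and extrudes it into loops, and a moving ring tends to stop where it meets bound CTCF, so that both proteins mark the bases of loops and the borders of chromatin domains. NIPBL drives loading and extrusion, the STAG proteins link the ring to CTCF and to DNA, and the PDS5 proteins take part in both the release and the protection of the ring. In neurons, which no longer divide, the complex serves genome folding and transcription rather than the pairing of sister chromatids, and mutations in the human counterparts of CTCF, NIPBL, SMC1A, SMC3 and RAD21 cause disorders of intellectual development.

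Both genotypes were on a C57BL/6 background and carried the Ctcf loxP/loxP alleles. The control mice (WT) had no Cre, and the conditional knockout mice (CKO) had Camk2a-Cre, in which the promoter of a kinase of forebrain excitatory neurons drives the recombinase. Whole hippocampus was used, so inhibitory neurons, glia and vessels contributed RNA to every sample beside the excitatory neurons. Each sample was RNA pooled from 3 mice that had gone through behavioural tests, with 3 pools of each genotype. The WT and CKO pools of one number were matched: 2 females with 1 male, 19 to 23 weeks old, in pool 1, females alone, 18 to 19 weeks old, in pool 2, and males alone, 15 to 17 weeks old, in pool 3. Only the CKO mice carried Cre, so an effect of Cre itself cannot be told apart from that of the deletion. For pool 1 of either genotype the RNA was run a second time, so there were 8 arrays, 4 on each of 2 slides. Pool 2 was on slide 1, pool 3 was on slide 2, and pool 1 had its first array on slide 1 and its second on slide 2.

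Of the 43020 non-control spots, 59.2% to 66.0% were well above background, depending on the array. Signal was weakest on the repeat arrays of pool 1, where the 75th percentile was 2112 (WT) and 2883 (CKO), against 3949 to 5104 elsewhere. All values below are log2 signal relative to the 75th percentile of the array, called the level, and the pair of arrays of pool 1 was averaged, which leaves n = 3 pools per genotype. Camk2a itself, which marks the neurons that the Cre targets, stood at 3.10 ± 0.08 (SD, n = 3) in WT and 3.13 ± 0.19 in CKO (difference 0.03, SE 0.13). Genotypes were compared with limma over all 23637 probes tested, with an adjusted p under 0.05 (Benjamini-Hochberg) as the threshold, which 8 probes (0.0338%) passed, all of them higher in CKO and none of them of the 10 genes.

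Ctcf, the deleted gene, was lower in CKO hippocampus in every pool. It was read by 1 probe of 60 bases, designed on NM_181322, whose first 30 bases are shown because every Ctcf value rests on this probe.
Ctcf: ttttaagagagccatcagttagctatcaga
The whole probe holds a stop codon in each of its 3 forward reading frames, and its place relative to the floxed exons was not determined here, so it may also read transcripts of the deleted allele. In WT pools 1, 2 and 3 the Ctcf level was 0.83, 1.12 and 1.04, and in CKO pools 1, 2 and 3 it was 0.18, 0.16 and 0.05. The lowest WT pool stood well above the highest CKO pool, and the 3 CKO pools lay close together. The mean was 1.00 ± 0.15 (SD, n = 3) in WT and 0.13 ± 0.07 in CKO, a log2 difference of -0.87 (SE 0.13, 95% interval -1.17 to -0.56). On the linear scale CKO signal was 54.8% of WT signal, with an interval for the ratio from 0.445 to 0.676. In whole tissue, fewer cells that express Ctcf and less Ctcf RNA per cell cannot be told apart.

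By limma the adjusted p of Ctcf was 0.160, which missed the threshold, and with the pool number as a block it was 0.0334, which passed. In that blocked fit 89 probes passed, against 8 in the main fit, and 25 of 23629 (0.106%) did so on the lower side. The values of Ctcf itself changed little. Its SE was 0.15 with the block and 0.13 without, and its unadjusted p by limma 9.64e-05 with the block and 0.000138 without. By that p Ctcf ranked 17 among the probes lower in CKO in the blocked fit. CKO minus WT in pools of the same number was -0.65, -0.96 and -0.99 on the log2 scale. Without the block, Ctcf ranked 18 by unadjusted p among the 23637 probes and 4 among those lower in CKO. A more negative difference than that of Ctcf was seen in 112 probes. Pools that did not overlap, with CKO the lower, were seen in 5.21% of probes. With 3 pools a side, the smallest p an exact permutation test allows is 0.1. Within slides, with 2 arrays of each genotype, the difference was -0.89 on slide 1 (adjusted p = 0.0850 by limma) and -0.74 on slide 2 (adjusted p = 1.00).

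1 WT array stood apart for Ctcf. On the 4 WT arrays Ctcf stood at 1.09 and 0.57 for the first and second array of pool 1, 1.12 for pool 2 and 1.04 for pool 3. On the CKO arrays it stood at 0.28 and 0.08 for pool 1, 0.16 for pool 2 and 0.05 for pool 3. All 4 CKO arrays lay below all 4 WT arrays, the second array of WT pool 1 included. Without that array the difference was -0.95 and the adjusted p by limma 0.00505, in a fit where 31 probes (0.131%) passed on the lower side. With the first array of each pool only, it was -0.92 (adjusted p = 0.00845), with 0.212% of probes past the threshold and lower. Over 28 alternative settings of the analysis the difference ran from -0.97 to -0.74, was negative in all 28 and passed the threshold in 11. These settings share arrays and are not separate tests, and an adjusted p depends on all probes of its fit. With the block, Ctcf passed without the pools numbered 2 (-0.82, SE 0.21), where 636 probes passed. It did not pass without the pools numbered 1 (-0.97, SE 0.14), where 3 probes passed.

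**Figure D1:**
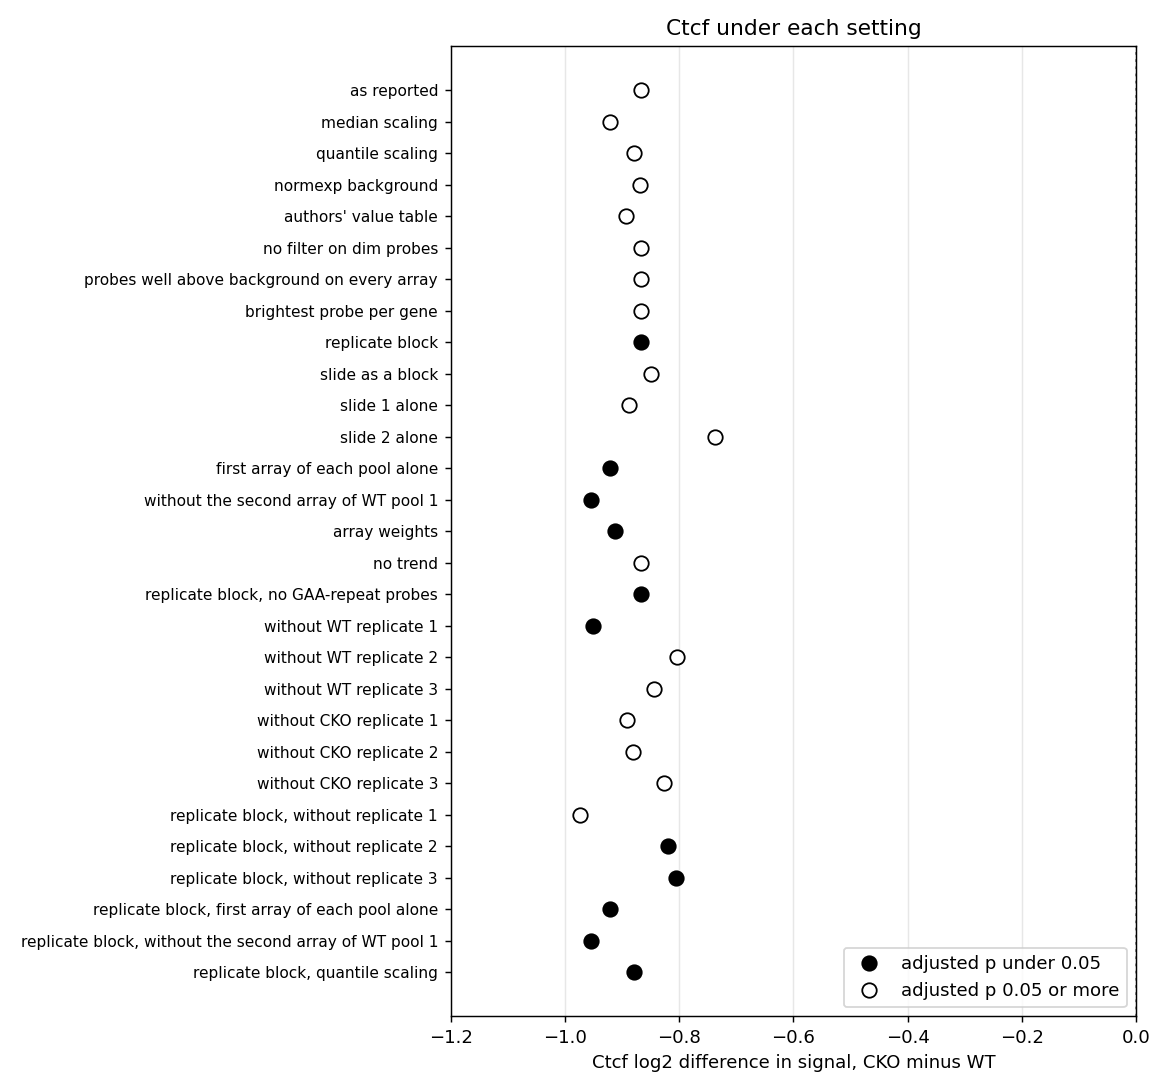
Ctcf difference between genotypes (CKO minus WT, log2 signal, horizontal axis) as reported and under each of 28 other settings (rows), with filled points where the limma adjusted p was under 0.05 and open points where it was not. Every point lies between -0.97 and -0.74, and 11 of the 28 alternatives are filled.

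Ctcfl (also called Boris), the paralogue of Ctcf that is normally expressed in the germ line, was not well above background on any of the 8 arrays. Its probe gave a signal of 21.5 to 24.9 on every array, where the dimmest probe called well above background had a signal of 101.8 to 114.1 depending on the array. WT and CKO arrays did not separate at this level, and no fold is given for a gene below background in both genotypes. Markers of germ cells were at low but measurable levels: Dazl, Ddx4 and Sycp3 were all tested, with 1 higher and 2 lower in CKO and 0 past the threshold. Dazl and Ddx4 were each well above background on 7 of 8 arrays, so they were kept through 1 genotype alone.

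The 3 subunits that close the cohesin ring showed no difference past the threshold. Rad21, the kleisin that bridges the heads of the ring, was read by a probe on NM_009009 and stood at 2.92, 2.91 and 3.05 in WT pools 1 to 3 and at 2.89, 2.91 and 2.92 in CKO pools 1 to 3. WT pool 3 was the highest, and the other pools lay within a narrow band. The means were 2.96 ± 0.08 (SD, n = 3) and 2.91 ± 0.01, a difference of -0.05 (SE 0.11, 95% interval -0.30 to 0.20). This was the narrowest interval among the 11 probes, and as a ratio it ran from 0.811 to 1.15, which leaves out a drop of the size measured for Ctcf.

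Smc1a, an X-linked gene for an ATPase arm of the ring, stood at 2.81, 2.33 and 2.64 in WT pools and at 2.57, 2.51 and 2.49 in CKO pools. The WT pools spread widely, both above and below all CKO pools. The difference was -0.07 (SE 0.14, interval -0.40 to 0.26), from 2.60 ± 0.25 (SD, n = 3) to 2.52 ± 0.04, and it turned to 0.01 with the second array of WT pool 1 left out, where Smc1a read 3.06. Smc3, the partner arm, stood at 0.86, 1.40 and 1.43 in WT pools and at 0.95, 1.10 and 1.28 in CKO pools. In each genotype pool 1 was the lowest and pool 3 the highest. The Smc3 difference was -0.12 (SE 0.18, interval -0.53 to 0.29). It was -0.20 on slide 1 and 0.07 on slide 2, and -0.23 without the second array of WT pool 1.

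Stag1 and Stag2 encode alternative subunits, of which a ring carries 1 at a time. Stag1 was read by 2 probes on NM_009282, and the first 30 bases of both are given because, unlike the probes of Pds5b, they gave the same sign.
Stag1 probe 1: ccagtgggtttccaagttcagtttaaagtc
Stag1 probe 2: tttccaacagatgctgtacaccgttcattt
By probe 1 Stag1 stood at -0.19, 0.30 and 0.32 in WT pools and at 0.27, 0.39 and 0.58 in CKO pools. The lowest CKO pool lay between WT pool 1 and the other WT pools, so the genotypes overlapped. The difference was 0.27 (SE 0.17, interval -0.13 to 0.67). It was about 2 times smaller, 0.13, with the second array of WT pool 1 left out, where the probe read -0.59.

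By probe 2 Stag1 stood at -0.43, -0.45 and -0.40 in WT pools and at -0.16, -0.37 and -0.25 in CKO pools. Every CKO pool exceeded every WT pool, which was also so in 6.02% of all probes tested. The difference was 0.17 (SE 0.13, interval -0.14 to 0.47), and it was 0.18 without the second array of WT pool 1. Neither probe passed, at an adjusted p of 0.999 by limma for both and 0.712 and 0.867 with the pool number as a block.

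Stag2, an X-linked gene like Smc1a, stood at 0.39, 1.28 and 1.33 in WT pools and at 0.71, 0.98 and 1.00 in CKO pools. The CKO pools lay inside the range of the WT pools. The difference was -0.10 (SE 0.25, interval -0.66 to 0.46), from 1.00 ± 0.53 (SD, n = 3) to 0.90 ± 0.16. The sign was not stable: CKO minus WT was 0.32 in pool 1 and -0.30 and -0.32 in pools 2 and 3. As a within-array contrast, Stag1 (both probes averaged) minus Stag2 moved by 0.32 on the log2 scale from WT to CKO, with pools that overlapped. The WT values of this contrast ran from -1.36 to -0.70 and the CKO values from -0.97 to -0.65.

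Nipbl, the cohesin loader, stood at -3.43, -2.57 and -3.30 in WT pools and -2.71, -2.76 and -2.71 in CKO pools. WT pool 2 was the highest of all 6 pools and WT pools 1 and 3 the lowest. The difference was 0.37 (SE 0.25, interval -0.20 to 0.94), the largest in size after that of Ctcf among the 11 probes. The size varied with the arrays and pools used. The second array of WT pool 1 read -4.26 and was the only one of 8 on which the probe was not well above background. The probe was thus kept through the CKO arrays alone, the genotype in which it was higher. Without that WT array the difference was 0.09. It was 0.24 on the first arrays only, 0.20 without WT pool 1 and 0.63 without WT pool 2, the highest WT pool. Within slides it was 0.07 on slide 1 and 0.84 on slide 2.

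Pds5a and Pds5b encode a pair of related proteins that bind the ring and, with WAPL, take part in its release. Pds5a stood at -3.11, -3.26 and -3.36 in WT pools and at -2.80, -3.19 and -2.73 in CKO pools. CKO pools 1 and 3 lay above every WT pool, and CKO pool 2 lay among them. The difference was 0.34 (SE 0.21, interval -0.13 to 0.80), and 0.37 without the second array of WT pool 1. In the same-numbered pools it was 0.32, 0.07 and 0.63, and the adjusted p was 0.999 by limma.

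Pds5b had 3 probes, given here because they did not read alike.
Pds5b probe 1: ccatttttgtgtagagaaataggtgcaata
Pds5b probe 2: tggatcttaagcagtacgtagtctgtcagt
Pds5b probe 3: gcaatagctaccataaagtaaatatggttg
Probes 1 and 2 were designed on NM_175310 and probe 3 on the cDNA clone sequence AK041682. By probe 1 the WT pools stood at -0.89, -0.12 and -0.04 and the CKO pools at -0.78, -0.54 and -0.41, a difference of -0.23 (SE 0.24, interval -0.77 to 0.32). Probe 2 stood at -2.46, -1.91 and -2.17 in WT and at -2.11, -2.18 and -1.99 in CKO, a difference of 0.08 (SE 0.19, interval -0.36 to 0.53). The 2 probes thus differed in sign, and both sets of pools overlapped. Without the second array of WT pool 1 probe 1 gave -0.40 and probe 2 -0.04. Probe 3 was well above background on 1 of 8 arrays, the second array of CKO pool 1, with a signal of 139.5, and was not tested. Pds5a minus Pds5b (its first 2 probes averaged) moved by 0.41 on the log2 scale, with pools that overlapped.

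**Figure D2:**
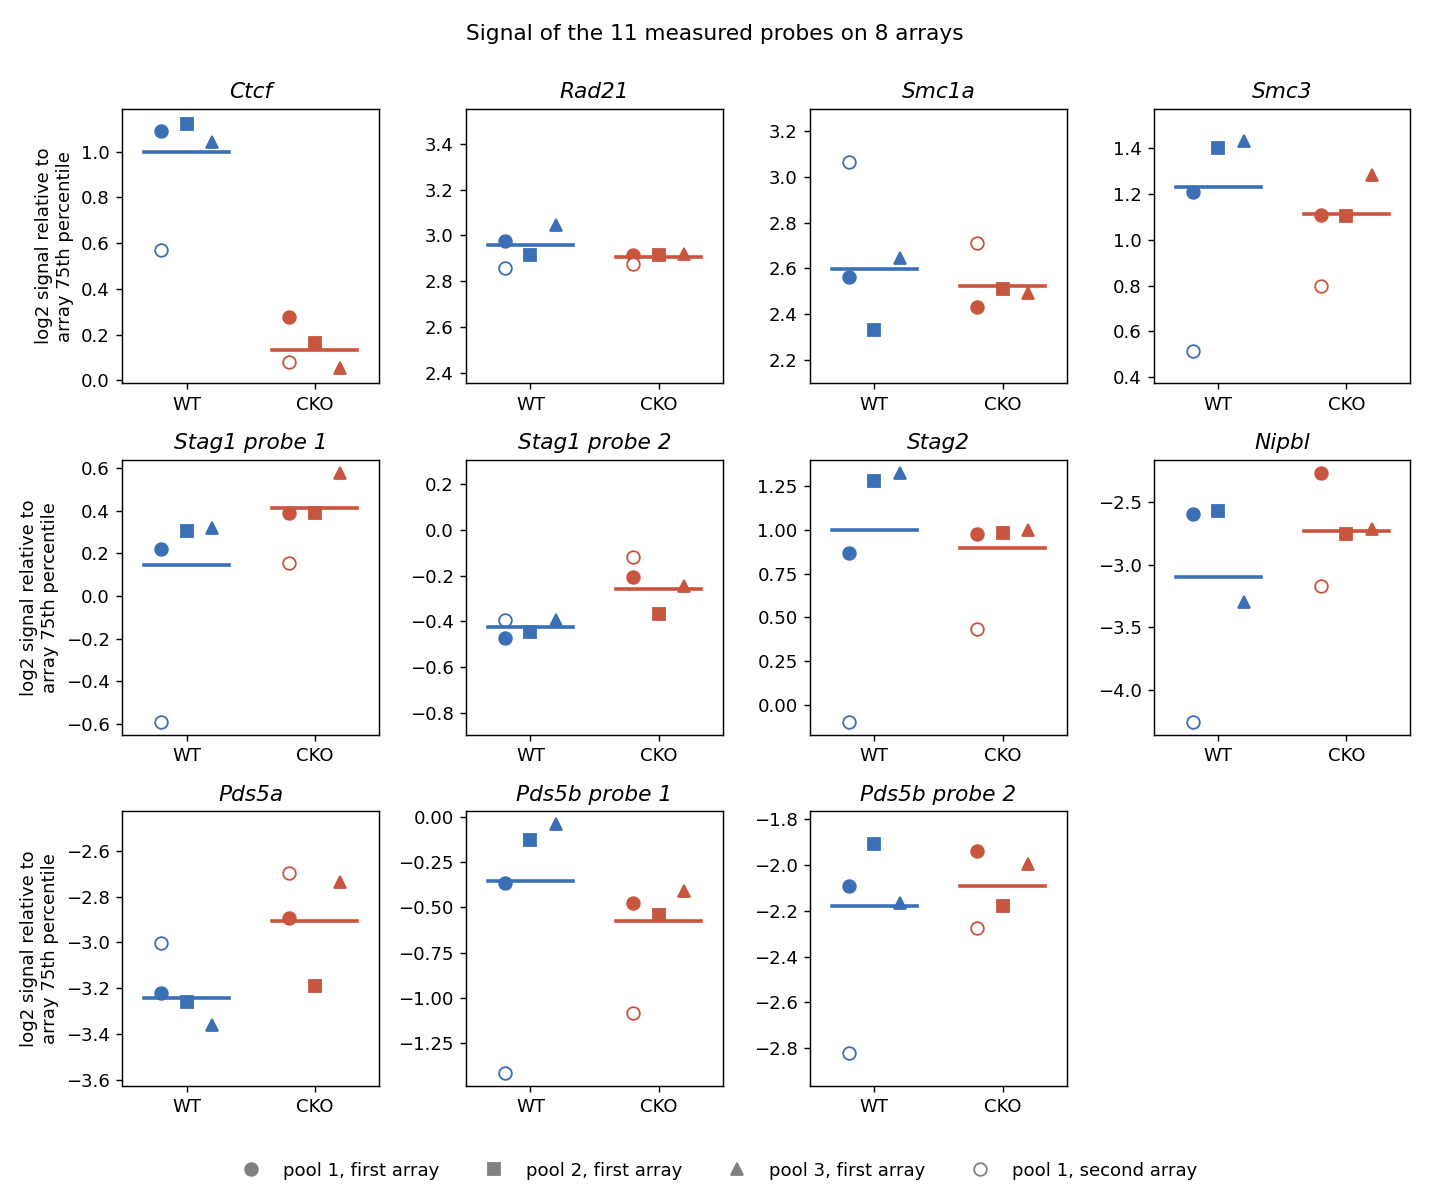
Level of each of the 11 measured probes (log2 signal relative to the array 75th percentile, vertical axis, a separate scale per panel) on the 4 WT and 4 CKO arrays. Filled symbols are the first array of each pool, open circles the second array of pool 1, and the horizontal line is the mean of the 3 pools. Only in the Ctcf panel and the panel of Stag1 probe 2 do the pools of the genotypes not overlap, and the open WT circle is the lowest WT point in 8 of the 11 panels.

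Apart from Ctcf, none of the 10 measured probes passed the threshold, and none had an unadjusted p under 0.05, against 1251 (5.29%) of all probes tested. The lowest adjusted p among them was 0.999 by limma and 0.712 with the pool number as a block. Their differences ran from -0.23 to 0.37. With 1 pool left out in turn, Stag1 gave 0.10 to 0.35 by probe 1 and 0.12 to 0.22 by probe 2, Pds5a 0.25 to 0.48, Smc3 -0.30 to -0.02 and Pds5b probe 1 -0.50 to -0.07. Over all 11 probes 5 were higher and 6 lower in CKO, against 52.1% higher and 47.9% lower over all probes. The median difference was -0.05 with Ctcf and 0.02 without it, beside a median of 0.01 (quartiles -0.11 and 0.15) over all 23637 probes. Pools that did not overlap were seen in 2 of the 11, Ctcf and Stag1 probe 2, and in 11.2% of all probes tested. The 95% intervals of the 10 other probes all contain 0. None of them extends as low as the -0.87 measured for Ctcf, the lowest end being -0.77 (Pds5b probe 1), while the highest end was 0.94 (Nipbl). However, the Ctcf value has its own interval, -1.17 to -0.56, which overlaps those of Pds5b probe 1 and Stag2 (lowest end -0.66).

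**Figure D3:**
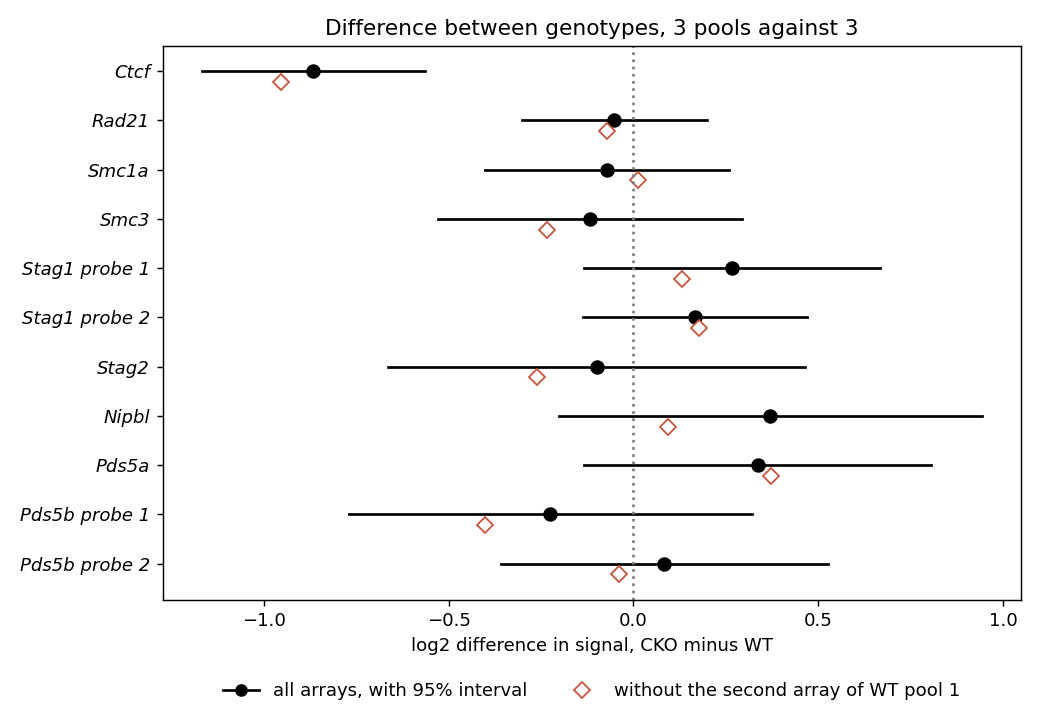
Difference between genotypes (CKO minus WT, log2 signal, horizontal axis) for the 11 measured probes, with black points and 95% intervals from all arrays and open diamonds for the value without the second array of WT pool 1. The Ctcf interval, -1.17 to -0.56, is the only one that leaves out 0.

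The repeat arrays of pool 1 measured the same RNA a second time. Second minus first array of WT pool 1 was -1.66 for Nipbl, -1.05 for Pds5b probe 1, -0.96 for Stag2, -0.81 for Stag1 probe 1, -0.73 for Pds5b probe 2, -0.70 for Smc3 and -0.52 for Ctcf. It was 0.50 for Smc1a, 0.22 for Pds5a, 0.08 for Stag1 probe 2 and -0.12 for Rad21. In CKO pool 1 the same gaps had the same signs and were smaller in 10 of the 11 probes, such as -0.91 for Nipbl, -0.20 for Ctcf and 0.28 for Smc1a. For 8 of the 11 probes the gap in WT exceeded the difference between genotypes, and in CKO this held for 6. Ctcf and Stag1 probe 2 were below their own genotype difference in both, and Pds5a likewise.

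Over all probes the WT gap had a median of 0.08, with a 5th to 95th percentile range of -1.01 to 1.64, and 21.1% of probes had a lower value than that of Ctcf. Across probes it correlated with the GC content of the probe at r = 0.54 in WT and 0.52 in CKO (n = 23628 probes, which share arrays and are not independent). Among the 11 probes of these genes r was 0.59 and 0.52. The WT and CKO gaps correlated at 0.98 among these probes and at 0.89 over all 23628. Their GC content ran from 35% to 45%, with Smc1a the highest at 45.0% and Ctcf at 36.7%. The part of these gaps in the differences between genotypes was not tested beyond the values without the second arrays given above.

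**Figure D4:**
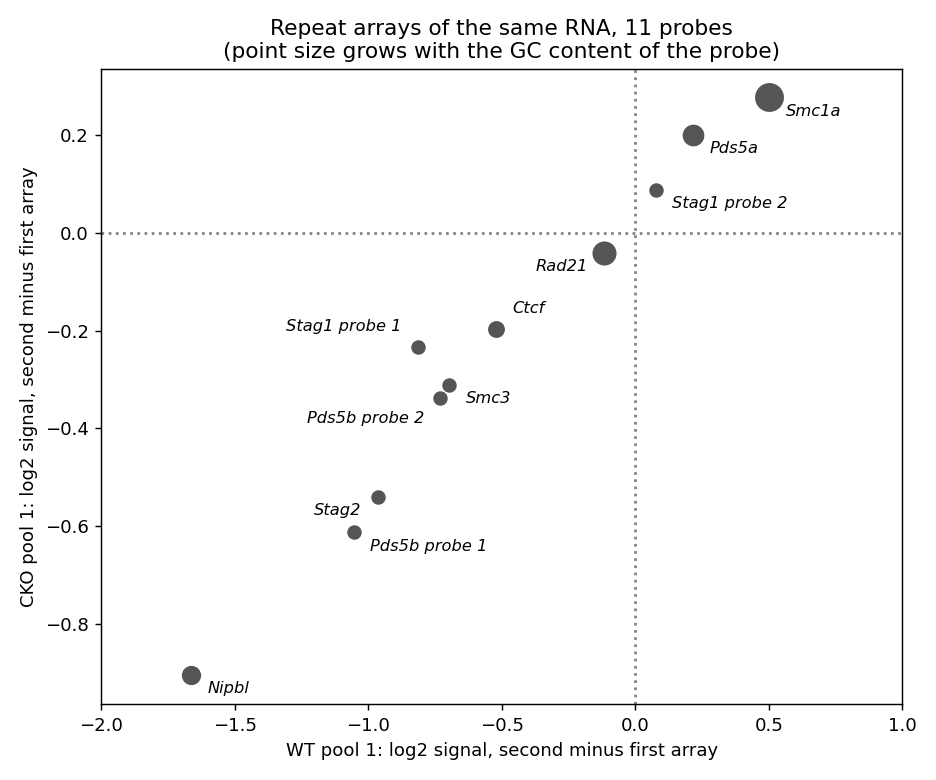
Second minus first array of the same RNA (log2 signal) for WT pool 1 (horizontal axis) and CKO pool 1 (vertical axis), 1 point per measured probe, with larger points for probes of higher GC content. The points run from Nipbl at -1.66 and -0.91 to Smc1a at 0.50 and 0.28, close to 1 line.

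Set against cohesin subunits on the same array, Ctcf stayed lower in CKO. The sign and size of such a ratio have no meaning across probes, but its change between genotypes is free of any scaling by 1 factor per array. Ctcf minus Rad21 ran from -2.29 to -1.79 on WT arrays and from -2.86 to -2.64 on CKO arrays, a change in the pool means of -0.81. Ctcf minus Smc3 ran from -0.39 to 0.06 on WT arrays and from -1.23 to -0.72 on CKO arrays, a change of -0.75. Ctcf minus Stag2 ran from -0.28 to 0.67 on WT arrays and from -0.95 to -0.36 on CKO arrays, a change of -0.77. For these 3 ratios no CKO array reached any WT array. Against Smc1a the change was -0.79 and the pools did not overlap, but the second array of WT pool 1, at -2.50, lay among the CKO arrays. These ratios share Ctcf, and each change equals the Ctcf difference minus that of the subunit, both given above. They are therefore not separate pieces of evidence and add no further test of Ctcf.

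**Figure D5:**
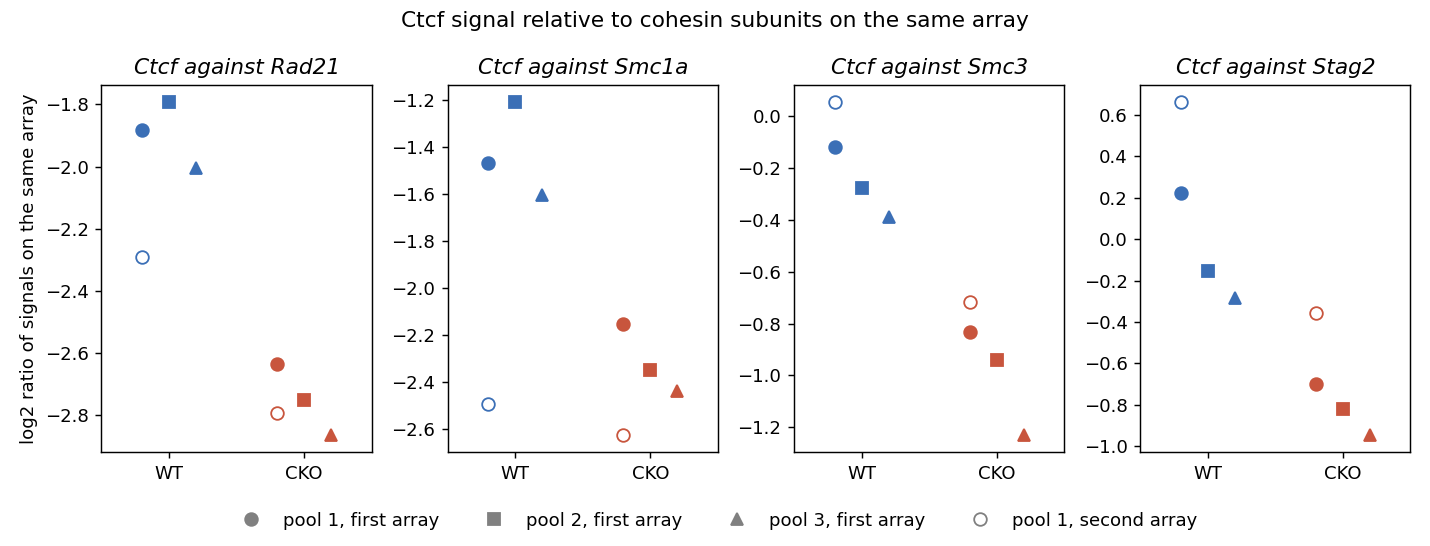
Log2 ratio of Ctcf signal to that of Rad21, Smc1a, Smc3 and Stag2 on the same array (vertical axis, a separate scale per panel) for the 4 WT and 4 CKO arrays, with filled symbols for the first array of each pool and open circles for the second array of pool 1. Arrays of the genotypes separate in the Rad21, Smc3 and Stag2 panels, and in the Smc1a panel the open WT circle at -2.50 lies among the CKO points.

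Further genes that act on cohesin were read from a list of 14 regulators and meiotic subunits, each by its brightest probe. Of these, 6 were measured, 4 of them higher and 2 lower in CKO, with 0 past the threshold or at an unadjusted p under 0.05 and a median difference of 0.05 against 0.01 over all probes. Wapl, which opens the ring, gave 0.17 (SE 0.15), Pttg1, the securin that restrains separase, 0.15 (SE 0.20), and Mau2, the partner of Nipbl in the loader, 0.08 (SE 0.19). Without the second array of WT pool 1 Pttg1 gave 0.02 and Mau2 0.22. The meiotic subunits Smc1b, Stag3 and Rad21l, like Ctcfl, were not measured, being well above background on 3, 4 and 0 of 8 arrays, nor were Esco2, Sgo1, Sgo2a, Espl1 and Cdca5, genes of the cell division cycle. Rec8, the meiotic kleisin, was well above background on all 8 arrays, with a difference of -0.02 (SE 0.23).

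A list of condensin and the SMC5/6 complex, ring complexes related to cohesin, was measured in 15 of 15 genes. It also held Smchd1, an SMC protein of neither complex. Of the 15, 6 were higher and 9 lower, 0 passed, 1 had an unadjusted p under 0.05, and the median difference was -0.04, that of Smchd1. The gene with that p, Nsmce4a, a subunit of SMC5/6, went from 0.58 ± 0.13 (SD, n = 3) to 0.06 ± 0.06, a difference of -0.52 (SE 0.13, adjusted p = 0.439 by limma). Its pools did not overlap, which on the lower side was also so in 5.21% of all probes tested. Ncaph of condensin gave -0.31 (SE 0.20), and -0.15 without CKO pool 3. Nsmce2, another subunit of SMC5/6, gave -0.22 (SE 0.17), and -0.51 without the second array of WT pool 1. The pools of Nsmce2 did not overlap either.

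Genes for proteins that bind with CTCF or shape chromatin beside it were measured in 18 of 18. Here 10 were higher and 8 lower, 0 passed, 1 had an unadjusted p under 0.05, and the median difference was 0.01. Parp1, a poly(ADP-ribose) polymerase reported to modify CTCF, went from 0.85 ± 0.12 (SD, n = 3) to 1.22 ± 0.16, a difference of 0.37 (SE 0.14, adjusted p = 0.849 by limma). Taf3, a TFIID subunit, gave 0.38 (SE 0.17) and Adnp, a chromatin remodelling partner, -0.26 (SE 0.14). The pools of Parp1 and Taf3 did not overlap, which on the higher side was also so in 6.02% of all probes tested. In the blocked fit, too, 0 genes of these 3 lists passed.

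Over the 6 pools, the named genes of 19079 probes compared whose level followed that of Ctcf most closely were Fbxl2 (r = 0.998), Ttc5 (0.997), Tcte1 (0.995), Egfl8 (0.995) and Pdzd9 (0.991). Their differences were -0.37, -0.54, -0.93, -0.58 and -1.29, and none passed the threshold. These genes were picked for their correlation over 6 pools that share arrays and genotypes, so that their pools separate as those of Ctcf do follows from the choice. For the 10 other probes of the cohesin genes r with Ctcf ran from -0.78 (Stag1 probe 2 and Pds5a) to 0.52 (Rad21). For Nipbl the closest were Kcna6 (0.992), Csl (0.988), Kti12 (0.988), Efr3a (0.986) and Sult4a1 (0.985), with r over the same pools. Smc1a ran opposite to Nipbl (r = -0.90), as did their gaps between the repeat arrays.

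Markers of cell types were read beside the Ctcf difference, as the mean of each list relative to its WT mean. Excitatory neurons, in which Cre is driven, had 11 of 12 markers measured, with 7 higher, 4 lower and a median difference of 0.13, and list means of -0.21 to 0.17 in WT and -0.14 to 0.01 in CKO pools. Among them Wfs1, a marker of CA1 pyramidal cells, went from 2.64 ± 0.15 (SD, n = 3) to 1.72 ± 0.06, a difference of -0.91 (SE 0.12) with an adjusted p of 0.126 by limma and 0.0175 with the pool number as a block. C1ql2, a marker of dentate granule cells, stood at 1.73, 1.35 and 0.42 in WT pools and at 0.20, -0.02 and 0.01 in CKO pools, a difference of -1.10 (SE 0.30), the largest in size of the list, with an adjusted p of 0.513 by limma and 0.0514 in the blocked fit. Its pools did not overlap, nor did those of Wfs1, which on the lower side was also so in 5.21% of all probes tested. Slc17a7, the vesicular glutamate transporter, gave 0.35 (SE 0.14). These 3 were the markers of the list with an unadjusted p under 0.05. All 6 oligodendrocyte markers were higher, with a median of 0.24 and list means of -0.09 to 0.05 in WT and 0.15 to 0.34 in CKO pools, and 0 passed.

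All 6 choroid plexus markers were also higher, with a median of 0.87, and WT pool 1 stood at -1.16, while the other WT pools reached 0.72 and the CKO pools ran from 0.50 to 0.96. In inhibitory neurons (9 measured), astrocytes (7), microglia (7) and endothelium (5) the medians were -0.01, 0.03, 0.14 and 0.03, with 0 past the threshold in either fit. Single markers could differ more. Gfap, of astrocytes (4 markers higher, 3 lower), gave 0.68 (SE 0.19, adjusted p = 0.535 by limma and 0.0512 in the blocked fit). Npy, of inhibitory neurons (4 higher, 5 lower), gave 0.42 (SE 0.13, adjusted p = 0.652 by limma). Of 5 markers of proliferating cells, Mki67 alone was measured. Ccnb1 was well above background on 6 of 8 arrays but not on all of either genotype, and Top2a, Cdk1 and Bub1 on 0. The part of such shifts in cell makeup in the Ctcf difference was not tested.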

How the data were processed

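Spot intensity for 8 one-colour Cy5 arrays was deposited as extracted by Agilent Feature Extraction 11.5, a version taken from the submitters' processing notes. The processed intensity is corrected for background and spatial trend on its own array, per the file headers, and low values are replaced by surrogates. A value table by the authors, used as an alternative, holds linear intensities in the same rank order as the background-subtracted signal (Spearman's rho of 1, medians 651.7 to 944.0); how it was scaled between arrays is not known. Here log2 processed signal was taken relative to the 75th percentile of the array's non-control spots. Outlier-flagged spots were left out (118 to 209 per array), and spots of a probe were averaged. Kept were probes that all arrays of WT, or all of CKO, showed well above background. Genotypes were compared two-sided with limma 3.58.1 (lmFit, eBayes with trend, R 4.3.3), with Benjamini-Hochberg adjustment over the probes kept. On simulated data, 22.5% of 200 probes shifted by 1 on the log2 scale passed the threshold without a block, and 91% of those shifted by 2. A probe short of the threshold is thus not shown to be unchanged. P-values cover the spread between pools, and 3 pools per genotype limit the precision.

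Same-numbered pools, which share sex and age makeup per the labels, deviated together from their genotype means (r = 0.54, 0.31 and 0.15 across probes, highest between other pairs 0.126). A fit that treats them as pairs, with the pool number as a block, was therefore run beside the main fit. The r of 0.54, for pool 1, takes in the second arrays, whose gaps to the first arrays correlated between WT and CKO at 0.89 over all probes. Within a genotype the deviations of the pools are tied to one another, so these r are not independent. The parts of sex, age, slide and second arrays in them were not tested. The main fit has no block, so the SEs, intervals and p-values given without mention of the block do not use the pairing. The blocked fit is named where it is used. Its SE was 0.16 for Stag2, against 0.25 in the main fit, and 0.15 for Ctcf, against 0.13. Since pool 2 lies on slide 1 alone and pool 3 on slide 2 alone, pool number and slide partly coincide.

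The genes and lists were chosen with earlier results of these data known. Named were all 10 genes, the 3 of smallest unadjusted p in each of the 3 further gene lists, and the 5 whose levels over pools correlated most with Ctcf or Nipbl (no clone names). Rec8, Wfs1, C1ql2, Slc17a7 and the other markers named were singled out after their values were seen. RefSeq accessions named 27508 of 39429 probes, symbols 3544 and synonyms 404, and 7973 kept the name in the scanner files, from which the probe sequences also come. Gene coordinates are not given, since the headers name build mm9 and no genome of that build was used here. Of 28 alternatives, 3 were chosen after seeing the data: the pool block with the first arrays only, without the second array of WT pool 1, and with quantile scaling.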

Additional observations from a re-analysis of the deposited data

Results flagged for a closer look

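Of 22 sets of 4 arrays (11 probes in each genotype), 4 held an array far from the other 3 by Dixon's test at the 95% level; chance marks about 1 set in 20, and both arrays of pool 1 are in each set, so the 4 arrays of a set are not independent. Each marked array was a second array of pool 1. Ctcf in WT was lowest there, with 0.57, where the others had 1.04 to 1.12. Rad21 in CKO read 2.87 there against 2.91 to 2.92. Stag1 probe 1 in WT read -0.59 against 0.22 to 0.32, and Stag2 in CKO 0.44 against 0.98 to 1.00.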

How the results depend on the processing

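The Ctcf difference was negative under all 28 alternatives. It was -0.87 as reported (adjusted p = 0.160 by limma) and passed the threshold with the pool number as a replicate block (-0.87, adjusted p = 0.0334), and in that block without GAA-repeat probes (-0.87), without replicate 2 (-0.82) or 3 (-0.81), with first arrays alone (-0.92), without the second array of WT pool 1 (-0.95) and with quantile scaling (-0.88). It also passed without the block on the first arrays only (-0.92, adjusted p = 0.00845), without the second array of WT pool 1 (-0.95) and with array weights (-0.91, adjusted p = 0.00508). Leaving out 1 pool gave -0.95 to -0.80, past the threshold only without WT pool 1. In those 11 settings 1 probe of these genes passed, Ctcf, in place of 0; leaving out 1 pool gave 0 to 1. The block changed no other call among these genes. With array weights 1 gene of the condensin list (Nsmce4a) and 1 of the CTCF partner list (Adnp) passed.

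Over all probes 8 passed, against 4 from the authors' value table, 5 with the brightest probe per gene, 89 with the replicate block, 0 on slide 2 alone (340 at an unadjusted p under 0.05), 115 with first arrays alone, 87 without the second array of WT pool 1, 932 with array weights, and, with the block, 64 without GAA-repeat probes, 3, 636 and 289 without replicates 1, 2 and 3, 37 with first arrays alone, 33 without the second array of WT pool 1 and 75 with quantile scaling. Leaving out 1 pool gave 1 to 21.

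Signs turned in differences that passed under none of the alternatives. Smc1a gave 0.025 on slide 1, 0.012 without the second array of WT pool 1 (with or without the block), 0.014 in the block without replicate 1, and -0.20 to 0.037 with 1 pool left out. Smc3 gave 0.069 and Stag2 0.10 on slide 2, and Stag2 0.013 in the block without replicate 3 and -0.40 to 0.065 with 1 pool left out. Pds5b probe 2 gave -0.058 on slide 1, -0.038 without the second array of WT pool 1 (with or without the block), -0.048 in the block without replicate 1, and -0.055 to 0.22 with 1 pool left out. Pttg1 gave -0.11 with array weights, -0.0087 in the block without replicate 1 and -0.049 to 0.31 with 1 pool left out. Mau2 gave -0.065 on slide 2, -0.088 in the block without replicate 3 and -0.060 to 0.28 with 1 pool left out, and Nsmce2 gave 0.021 on slide 2. The causes were not tested. Scaling moved the median of all probes by under 0.1. Signal over background limits Ctcfl (0 of 8 arrays), Pds5b probe 3 (1 of 8) and Nipbl (7 of 8).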

Other observations

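Smc1a and Stag2 are X-linked, and pool 2 held females alone and pool 3 males alone. Smc1a stood at 2.33 in the female and 2.64 in the male WT pool, and at 2.51 and 2.49 in the female and male CKO pools. Stag2 stood at 1.28 and 1.33 in WT and at 0.98 and 1.00 in CKO. With 1 such pool per genotype there is no test, and sex, age and slide cannot be told apart between these pools.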
